A study of Mus musculus with 4 samples.

Results

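The T cell receptor variable segments are the germline gene pieces, named Trav for the alpha chain and Trbv for the beta chain, that code for most of the antigen-binding part of an alpha-beta T cell receptor. They were taken as every gene whose symbol starts with Trav or Trbv, which gave 163 of the 32285 genes in the files, 128 Trav and 35 Trbv. Their transcripts were counted in T cells of CT26 tumours, CT26 being a colon carcinoma line that grows in Balb/c mice. Leukocytes had been taken from the tumours with magnetic beads against CD45, the pan-leukocyte surface protein, and sequenced, per the labels, with a 10x Genomics droplet method that counts transcripts by their 3' ends. The 2 liproxstatin libraries came from tumour-bearing mice treated for 8 days with liproxstatin-1, which blocks ferroptosis (death by iron-dependent lipid peroxidation), and the 2 control libraries from tumour-bearing mice with no treatment named. All mice were Balb/c and 9 weeks old and carried no engineered allele that the labels name. The labels do not say that the 2 libraries of a group were separate animals, so each p-value rests on how far these libraries differ, and that spread may be technical.

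Each developing T cell joins 1 variable segment to a joining segment (and, in the beta chain, a diversity segment) in the thymus, and all descendants of that cell keep the same joined gene. A clone that has expanded against an antigen therefore shows as many cells with the same segments. The segment covers the first and second complementarity-determining loops, which mostly touch the MHC molecule, and only the start of the third loop, which mostly touches the peptide, so cells with the same segment need not be of 1 clone. The alpha locus keeps rearranging and is not silenced on the second chromosome as strictly as the beta locus, so a T cell can carry a pair of different Trav transcripts. In Balb/c mice, endogenous mouse mammary tumour viruses encode superantigens that remove most T cells with certain beta segments.

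T cells were cells with at least 2 UMIs (unique molecular identifiers, each standing for 1 captured transcript) of the CD3 genes Cd3d and Cd3e together. CD8 T cells had at least 2 UMIs of Cd8a and Cd8b1 together, and CD4 T cells had at least 1 Cd4 UMI and no Cd8a or Cd8b1 UMI. The gates held 925 and 1070 CD8 cells in liproxstatin replicates 1 and 2, against 295 and 753 in control replicates 1 and 2. They held 142 and 187 CD4 cells in the liproxstatin libraries, against 70 and 143 in the control libraries. Foxp3, the transcription factor of regulatory T cells, lay between 140 and 235 CPM (counts per 1000000 UMIs of the summed cells) in the CD4 gates. It was at no more than 3.06 CPM in the CD8 gates. Cd40lg, another marker of the CD4 list, was at 32.4 to 64.6 CPM in the CD4 gates and at no more than 2.95 CPM in the CD8 gates. Transcripts of other cell types were present too. All libraries together kept 25730 cells after filters. Libraries held 83129874 to 168597163 UMIs, and pairs of libraries shared 4 to 22 cell barcodes, at most 0.29% of the smaller library. In CD8 cells a summed list of 7 phagocyte markers was at 462 and 2347 CPM (liproxstatin) against 1519 and 1103 CPM (control). In CD4 cells it was at 2707 and 2488 CPM (liproxstatin) against 664 and 7166 CPM (control). In CD4 cells of control replicate 2 it thus exceeded the summed CD4 marker list, at 2927 CPM. The part of phagocyte RNA in the results below was not tested.

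The germline exons of the segments that the results turn on are given first, because they show how far 1 segment can be told from another. They were read from the GENCODE M21 transcripts of the mouse genome GRCm38 (mm10), where Trbv segments lie on chromosome 6 and Trav segments on chromosome 14. Each exon runs 5' to 3' on the plus strand, is coding throughout and is in lower case up to the codon of the conserved second cysteine. Capitals mark that codon and all that follows, the germline start of the third loop. The 4 beta segments shown are those most used in a library or in the mean over libraries, or that rose in CD8 cells. Each differs from every other Trbv exon at more than 3 bases.
Trbv19 (chr6:41178749-41179048, the last 300 of 303 bases): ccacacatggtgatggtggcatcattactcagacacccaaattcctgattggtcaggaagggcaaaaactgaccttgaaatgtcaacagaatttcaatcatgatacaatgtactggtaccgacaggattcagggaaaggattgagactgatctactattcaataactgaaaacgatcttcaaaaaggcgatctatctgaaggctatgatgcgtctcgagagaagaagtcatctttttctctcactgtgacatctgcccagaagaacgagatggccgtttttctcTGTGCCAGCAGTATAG
Trbv2 (chr6:41047701-41047995): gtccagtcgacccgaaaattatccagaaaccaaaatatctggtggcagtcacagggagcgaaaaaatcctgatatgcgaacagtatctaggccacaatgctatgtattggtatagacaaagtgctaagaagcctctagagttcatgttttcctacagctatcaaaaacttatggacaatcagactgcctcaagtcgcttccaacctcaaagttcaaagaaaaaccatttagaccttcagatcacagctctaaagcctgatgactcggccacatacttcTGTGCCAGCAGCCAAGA
Trbv13-1 (chr6:41116175-41116468): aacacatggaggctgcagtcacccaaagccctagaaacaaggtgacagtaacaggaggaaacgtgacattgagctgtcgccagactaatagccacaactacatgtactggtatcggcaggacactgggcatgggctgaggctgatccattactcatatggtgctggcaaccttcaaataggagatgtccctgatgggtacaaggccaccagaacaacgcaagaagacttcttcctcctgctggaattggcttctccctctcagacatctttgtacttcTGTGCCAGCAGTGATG
Trbv1 (chr6:40891591-40891885): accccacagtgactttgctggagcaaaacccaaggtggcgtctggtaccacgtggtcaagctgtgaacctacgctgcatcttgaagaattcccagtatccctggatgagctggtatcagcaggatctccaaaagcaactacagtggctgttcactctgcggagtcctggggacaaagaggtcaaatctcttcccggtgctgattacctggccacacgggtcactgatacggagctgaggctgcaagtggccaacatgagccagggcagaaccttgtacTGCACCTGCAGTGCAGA
The alpha segments shown are those most used in a library, the copy of Trav7-4 that was used in another library, and Trav7-3, the 1 segment that differed between treatment groups in the test over all genes.
Trav3-3 (chr14:53666216-53666506): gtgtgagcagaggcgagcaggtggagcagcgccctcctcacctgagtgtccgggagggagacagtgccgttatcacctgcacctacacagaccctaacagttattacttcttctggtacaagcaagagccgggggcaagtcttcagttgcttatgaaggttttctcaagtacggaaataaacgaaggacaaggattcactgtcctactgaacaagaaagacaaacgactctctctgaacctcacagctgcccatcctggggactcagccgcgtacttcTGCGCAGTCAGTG
Trav5-1 (chr14:52622792-52623082): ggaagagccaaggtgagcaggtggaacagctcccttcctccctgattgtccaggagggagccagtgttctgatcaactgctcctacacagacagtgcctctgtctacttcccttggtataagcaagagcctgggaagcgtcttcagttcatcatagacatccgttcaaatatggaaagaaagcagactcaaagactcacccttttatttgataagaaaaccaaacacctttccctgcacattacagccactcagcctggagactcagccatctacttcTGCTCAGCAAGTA
Trav7-4 (chr14:53461447-53461738): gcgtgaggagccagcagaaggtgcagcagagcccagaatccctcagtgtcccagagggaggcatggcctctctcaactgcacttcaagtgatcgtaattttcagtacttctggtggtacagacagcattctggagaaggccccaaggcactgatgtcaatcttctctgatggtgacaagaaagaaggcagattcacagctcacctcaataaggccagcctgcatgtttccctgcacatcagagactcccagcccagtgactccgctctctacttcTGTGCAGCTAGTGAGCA
Trav7d-4 (chr14:52770101-52770392): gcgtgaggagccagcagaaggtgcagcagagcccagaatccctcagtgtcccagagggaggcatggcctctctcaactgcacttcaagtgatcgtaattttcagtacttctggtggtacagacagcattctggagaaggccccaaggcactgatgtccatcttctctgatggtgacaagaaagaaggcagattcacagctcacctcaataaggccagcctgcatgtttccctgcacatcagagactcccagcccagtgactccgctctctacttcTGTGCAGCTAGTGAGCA
Trav7-3 (chr14:53443552-53443839): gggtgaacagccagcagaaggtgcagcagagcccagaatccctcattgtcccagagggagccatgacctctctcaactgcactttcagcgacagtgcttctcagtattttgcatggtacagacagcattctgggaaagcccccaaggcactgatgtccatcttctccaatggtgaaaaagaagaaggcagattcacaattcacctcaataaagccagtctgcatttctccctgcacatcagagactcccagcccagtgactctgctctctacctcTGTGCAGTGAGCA
Counting substituted, inserted and missing bases alike, Trav7-4 and Trav7d-4 differ at 1 base, and Trav7-3 differs from its nearest copy Trav7d-3 at 2 bases. Trav3-3 differs from its copies Trav3d-3 and Trav3n-3, which have the same exon sequence and were seen in no gated cell, at 4 bases. By contrast Trbv19 shares 61.4% of bases with its nearest relative, Trbv13-3, and Trbv13-1 differs from Trbv13-2 at 33 bases.

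The alpha segments are thus harder to tell apart than the beta segments. The alpha locus of the reference holds blocks copied in full, marked d and n in the names, and 62 of the 128 Trav exons differ from another Trav exon at no more than 3 bases, against none of the 35 Trbv exons. Of the 60 Trav segments seen in no gated T cell, 42 have such a near-identical copy, whereas 20 of the 68 seen ones do. Reads of such copies may be shared between them, so values of single Trav segments with copies are uncertain. The reference is a C57BL/6 genome and the mice were Balb/c, and how far Balb/c alleles map to it was not tested. The segments annotated as pseudogenes took 4 of 2133 Trbv UMIs (0.188%) and 23 of 3729 Trav UMIs (0.617%) in gated cells. In all, 23 Trbv and 68 Trav segments were seen in a gated T cell, and 14 Trbv and 21 Trav segments were seen in CD8 cells of all 4 libraries.

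A 3' method reads mostly away from the variable end of a receptor transcript, and many T cells showed no segment. At least 1 Trbv UMI was found in 48.2% and 33.0% of CD8 cells in the liproxstatin libraries, against 50.5% and 40.4% in the control libraries. At least 1 Trav UMI was found in 51.2% and 37.9% of CD8 cells in the liproxstatin libraries, against 58.3% and 62.4% in the control libraries. CD4 cells, with a median of 5423 to 7561 UMIs per cell, had a Trbv UMI in 17.6% to 25.7% of cells, whereas CD8 cells had a median of 11168 to 14685 UMIs. Phagocytes with no CD3 UMI, which should carry no rearranged receptor, had a Trbv UMI in 0.0505% to 0.217% of cells at a median of 21311 to 29671 UMIs, and a Trav UMI in 0.0877% to 0.289%. The shares in T cells lay far above this background. After each cell was thinned to 3000 UMIs, the Trbv share of CD8 cells was 15.8% and 11.5% in the liproxstatin libraries, against 15.6% and 12.6% in the control libraries (exact permutation test over libraries, two-sided, p = 1.0). The thinned Trav share was 17.6% and 14.9% in the liproxstatin libraries, against 16.6% and 24.9% in the control libraries (p = 0.667, exact permutation test), and with 2 libraries per group no p under 0.33 can be reached.

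CD8 T cells used few beta segments heavily, and which ones differed from library to library. The usage share is the number of cells with a segment as the only one of its chain, over all cells with exactly 1 segment of that chain. Trbv19 had the highest mean usage, 19.5% ± 11.6 (SD, n = 4 libraries), and made up 30.3% (111 cells) and 21.9% (67 cells) in the liproxstatin libraries, against 22.6% (30 cells) and 3.11% (8 cells) in the control libraries. It was the most used beta segment in both liproxstatin libraries and was low in control replicate 2. Trbv2 made up 6.28% and 3.92% in the liproxstatin libraries, against 24.1% and 12.1% in the control libraries, where it led in replicate 1. Trbv1 made up 2.46% (9 cells) and 0.980% (3 cells) in the liproxstatin libraries, against 15.8% (21 cells) and 19.5% (50 cells) in the control libraries, where it led in replicate 2. For Trbv2 and Trbv1 both control libraries lay above both liproxstatin libraries. For such a split, here and below, an exact permutation test of 2 against 2 libraries gives no p under 0.33. Its share over all segments was not counted. Trbv13-1 was high in 1 library of each group, with 6.83% and 17.6% in the liproxstatin libraries, against 2.26% and 17.1% in the control libraries.

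**Figure D1:**
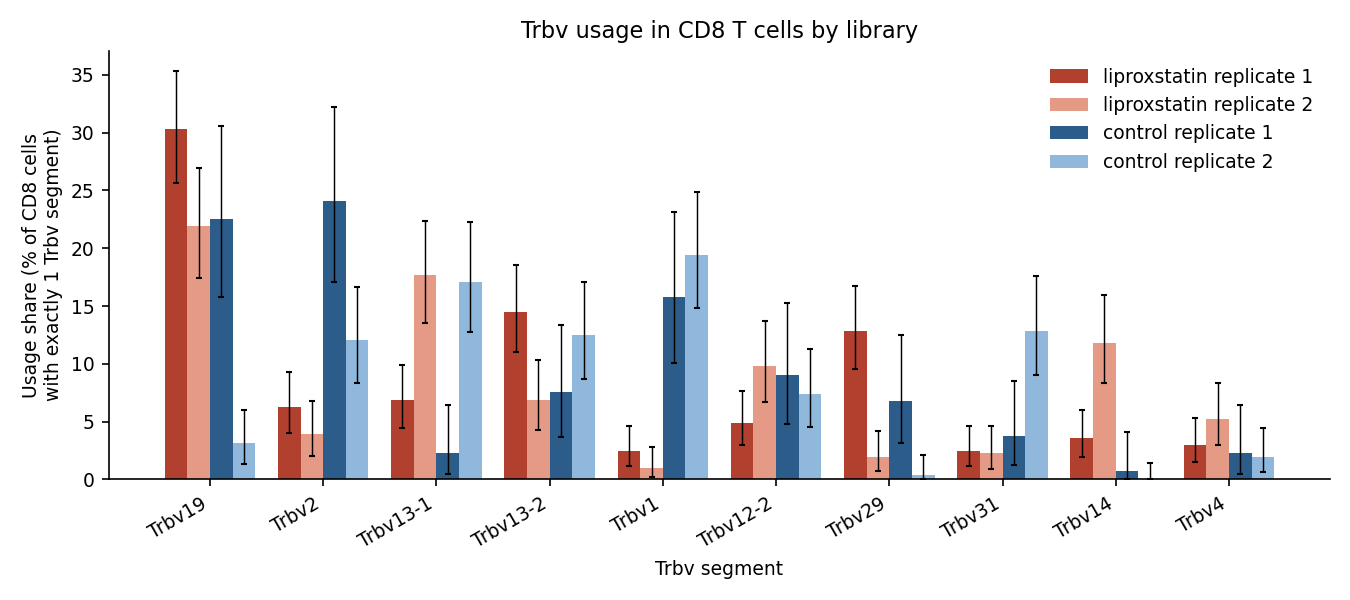
Usage share (%) of the 10 beta segments with the highest mean share in CD8 T cells, 1 bar per library, with liproxstatin libraries left of control libraries; error bars are exact 95% binomial intervals, which cover counting error only. Trbv19 reached 30.3% in liproxstatin replicate 1 and 3.11% in control replicate 2, while Trbv1 was at 0.980% in liproxstatin replicate 2 and 19.5% in control replicate 2.

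The remaining named beta segments each stood high in 1 or 2 libraries. Trbv29 was at 12.8% and 1.96% in the liproxstatin libraries, against 6.77% and 0.389% in the control libraries. Trbv14 was at 3.55% and 11.8% in the liproxstatin libraries, against 0.752% (1 cell) and no cell in the control libraries. Trbv31 was at 2.46% and 2.29% in the liproxstatin libraries, against 3.76% and 12.8% in the control libraries. Trbv13-2 (6.86% to 14.5%) and Trbv12-2 (4.92% to 9.80%) varied less, with overlapping groups. Trbv4 was at 3.01% (11 cells) and 5.23% (16 cells) in the liproxstatin libraries, against 2.26% (3 cells) and 1.95% (5 cells) in the control libraries. In summed UMIs Trbv4 differed by 0.39 ± 0.54 on the log2 scale (SE, edgeR's quasi-likelihood test, adjusted p = 0.953). For Trbv14, Trbv31 and Trbv4 the groups did not overlap. The share of all segments that split this way was not counted. The 3 most used beta segments covered 57.7% and 51.3% of cells in the liproxstatin libraries, against 62.4% and 49.4% in the control libraries.

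A single alpha segment, Trav3-3, was more dominant still. It made up 57.3% (223 cells) and 17.2% (58 cells) of CD8 cells with 1 Trav segment in the liproxstatin libraries, against 33.8% (46 cells) and 5.01% (17 cells) in the control libraries, with a mean of 28.3% ± 22.7 (SD, n = 4 libraries). In liproxstatin replicate 1 it alone covered over 50% of these cells, and the groups overlapped. Trav5-1 was the most used segment in liproxstatin replicate 2 and made up 2.57% and 23.1% in the liproxstatin libraries, against no cell and 2.65% in the control libraries. Trav7-4 led in control replicate 2 and made up 3.86% and 1.48% in the liproxstatin libraries, against 0.735% and 22.1% in the control libraries. Trav7d-4, its copy, made up 1.03% and 11.2% in the liproxstatin libraries and was in no single-segment CD8 cell of the control libraries. The 2 copies, which differ at the 1 base noted above, were thus each high in a different library. Trav21-dv12, a segment that can also join the delta chain, made up 3.60% and 4.73% in the liproxstatin libraries, against 8.09% and 6.19% in the control libraries, and both control libraries lay above both liproxstatin libraries. Trav14d-3-dv8 was at 0.514% and 5.62% in the liproxstatin libraries, against 7.35% and 1.77% in the control libraries. The last share leaves out 18 CD8 cells of control replicate 2 that held this segment with Trav14n-3. With all UMIs counted it was at 0.294 and 3.52 CPM in the liproxstatin libraries, against 10.7 and 8.92 CPM in the control libraries (edgeR adjusted p = 0.875).

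**Figure D2:**
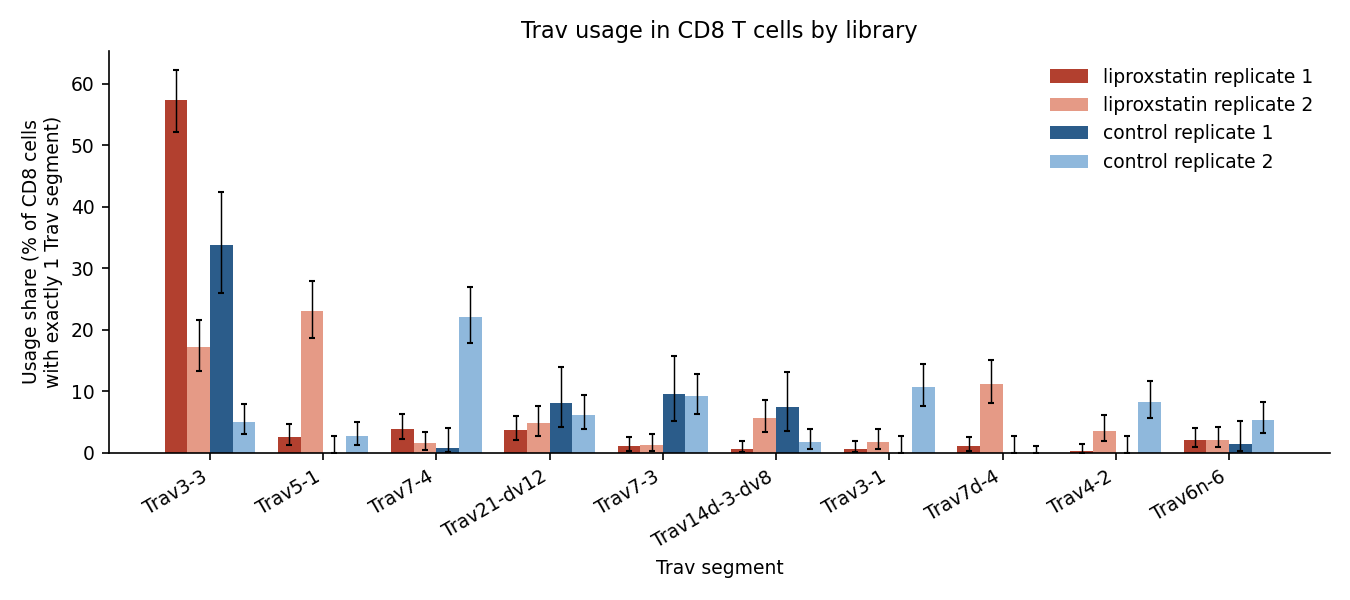
Usage share (%) of the 10 alpha segments with the highest mean share in CD8 T cells, 1 bar per library, with liproxstatin libraries left of control libraries; error bars are exact 95% binomial intervals, which cover counting error only. Trav3-3 was highest at 57.3% in liproxstatin replicate 1 and lowest at 5.01% in control replicate 2, and Trav7-3 was at 1.03% and 1.18% in the liproxstatin libraries, against 9.56% and 9.14% in the control libraries.

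Trav7-3 was the 1 segment that separated the groups in the test over all genes. It made up 1.03% (4 cells) and 1.18% (4 cells) of CD8 cells with 1 Trav segment in the liproxstatin libraries, against 9.56% (13 cells) and 9.14% (31 cells) in the control libraries. The summed CD8 cells held 8 and 7 UMIs of Trav7-3 (0.588 and 0.465 CPM) in the liproxstatin libraries, against 45 and 55 UMIs (8.30 and 4.23 CPM) in the control libraries, so the groups did not overlap. Trav7-3 fell by 3.50 ± 0.47 on the log2 scale (SE; edgeR's quasi-likelihood test with Benjamini-Hochberg adjustment over 11925 genes, adjusted p = 0.0185). The adjusted p was 0.152 without liproxstatin replicate 1 and 0.154 without liproxstatin replicate 2, so the call was lost without either of them. In control replicate 2, Trav7-3 was paired with Trbv31 in 15 cells, a pair found in no other library. Of 163 segments 28 passed the filter on low counts and 1 was called, against 0.0922% of all genes tested (11 of 11925), 0.0755% higher and 0.0168% lower. Trav7-3 passed that filter only through the control libraries, the group where it was high. Its call is therefore no independent support for the split. Trav7-3 has the near copy Trav7d-3 noted above, so the split of reads between them is uncertain.

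In that fit 10 of the 28 segments tested, Trav7-3 among them, had an unadjusted p under 0.05, against 795 of the 11925 genes tested. Of these, Trav7-3, Trbv14, Trav7d-4, Trav13-1, Trav8d-2 and Trbv3 passed the filter on low counts only through the group where they were high. The filter thus favoured segments that were high in 1 group, and no conclusion is drawn from the count. More segments and more genes were called without control replicate 1, a fit that leaves 1 control library. Trbv14, at 1.84 and 3.72 CPM in the liproxstatin libraries against 0.369 and 0.154 CPM in the control libraries, differed by 3.60 ± 0.68 on the log2 scale (SE, edgeR adjusted p = 0.106). Trav8d-2, chosen here after its values were seen, had the largest fitted difference of the 28 segments, with 24 and 98 UMIs (1.77 and 6.51 CPM) in the liproxstatin libraries, against 0 and 1 UMI in the control libraries. Its edgeR adjusted p was 0.316, against 0.0177 with DESeq2 and 0.0170 with the replicate block, and with 1 control UMI no fold is given. Trav7d-4 had 15 and 54 UMIs in the liproxstatin libraries, against 0 and 1 in the control libraries (edgeR adjusted p = 0.162, and 0.0374 with the replicate block). Trav21-dv12, at 2.35 and 2.53 CPM in the liproxstatin libraries against 6.64 and 5.0 CPM in the control libraries, differed by -1.22 ± 0.30 (SE, edgeR adjusted p = 0.251, unadjusted 0.00186). None of these groups overlapped, a split for which an exact permutation test of 2 against 2 libraries gives no p under 0.33. These segments were picked by their values, and the share of all genes that separate in this way was not counted. Trbv1, at 1.62 and 0.266 CPM in the liproxstatin libraries against 5.16 and 7.07 CPM in the control libraries, differed by -2.74 ± 0.68 (SE, edgeR adjusted p = 0.459). Its adjusted p was 0.0345 with DESeq2. With edgeR it was 0.0348 without cells with a Csf1r UMI, 0.000836 with scaling to segment UMIs and 3.15e-09 with no filter. It was 0.469 with RLE scaling, 0.472 with the replicate block and 0.627 with doublets kept (edgeR). Trbv19 differed by 1.22 ± 1.15 (SE, edgeR adjusted p = 0.941) and Trav3-3 by 1.06 ± 1.26 (SE, edgeR adjusted p = 0.95), both with groups that overlapped. Among the lists of T cell genes, 1 of 8 naive and memory genes passed the test: Il7r, the interleukin 7 receptor chain that sustains resting and memory T cells, was at 127 and 109 CPM in the liproxstatin libraries against 62.5 and 69.4 CPM in the control libraries and rose by 0.84 ± 0.12 on the log2 scale (SE, edgeR adjusted p = 0.0303). That call was lost in 4 of 11 alternatives, without liproxstatin replicate 1, liproxstatin replicate 2 or control replicate 2 and with scaling to segment UMIs (edgeR adjusted p up to 0.472). None of 16 effector and exhaustion genes, 7 proliferation genes or 7 receptor constant and CD3 genes was called; the median log2 difference of the effector list was 0.074, beside -0.0067 over all genes.

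CD4 T cells, fewer and shallower, showed no call between liproxstatin and control with all 4 libraries. edgeR's quasi-likelihood test called 0 of 8568 genes (0% in either direction), with 265 at an unadjusted p under 0.05, and DESeq2's Wald test called 3. This count depended on the control libraries, as 223 of 9423 genes were called without control replicate 1 and 169 of 8768 without control replicate 2. Only 1 segment, Trav7d-4, passed the filter on low counts. The difference between CD8 and CD4 cells in the response to liproxstatin was tested as an interaction, which was called for none of the 20 segments or 10819 genes tested, with 231 genes at an unadjusted p under 0.05.

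Alpha segments were spread more evenly in CD4 cells than in CD8 cells, although fewer were seen. Among CD4 cells with 1 Trav segment there were 27 and 29 segments in the liproxstatin libraries, against 17 and 30 in the control libraries. The more numerous CD8 cells held 41 and 40 in the liproxstatin libraries, against 32 and 39 in the control libraries. Trav3-3 had the highest mean usage in CD4 cells too, yet it was at 3.85% and 15.7% of 52 and 51 cells in the liproxstatin libraries, against 4.76% and 7.69% of 21 and 52 cells in the control libraries. Next were Trav16n (1.96% to 7.69%), Trav14d-3-dv8 (0% to 9.52%), Trav7-4 (0% to 9.62%), Trav21-dv12 (0% to 9.52%) and Trav9-4 (0% to 9.62%). It took 9 and 9 alpha segments to cover over 50% of the CD4 cells in the liproxstatin libraries, against 7 and 9 in the control libraries. In CD8 cells the same took 1 and 3 segments in the liproxstatin libraries, against 3 and 4 in the control libraries. Of the beta segments in CD4 cells, Trbv19 was in 0 and 6 cells of the liproxstatin libraries, against 3 and 8 of the control libraries, out of 26, 31, 18 and 31 cells with 1 Trbv segment. Trbv1 followed, with 6 and 5 cells in the liproxstatin libraries, against 2 and 3 in the control libraries. Trbv2 was in 7 cells of liproxstatin replicate 1 and in 1 cell of each other library. Trbv12-2, Trbv13-2, Trbv31, Trbv29, Trbv13-3, Trbv13-1 and Trbv20 each held 0 to 5 CD4 cells per library. The 3 most used beta segments covered 61.5% and 51.6% of CD4 cells in the liproxstatin libraries, against 38.9% and 54.8% in the control libraries. It took 3 and 3 beta segments to cover over 50% in the liproxstatin libraries, against 5 and 3 in the control libraries. In CD8 cells the same took 3 and 3, against 3 and 4, so this count differed little between the classes.

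Between the classes, CD8 over CD4 with the library as a block, 3 of 20 tested segments were called (edgeR's quasi-likelihood test, adjusted p under 0.05), against 28.4% of all genes tested, so the share of segments did not exceed the background. Trbv13-1 was at 2.94, 5.38, 1.11 and 4.61 CPM in CD8 cells of liproxstatin replicates 1 and 2 and control replicates 1 and 2, against 2.53, 1.31, 0 and 0.635 CPM in CD4 cells. It rose by 1.79 ± 0.58 on the log2 scale in CD8 cells (SE, edgeR adjusted p = 0.0384) and was higher in 4 of 4 libraries. The call was lost in 5 of 10 alternatives, and the CD4 values rest on 3, 2, 0 and 1 UMIs. Without control replicate 1 there were 5 segments called, and without control replicate 2 there was 1. Trav4-4-dv10 was at 0.515, 0.332, 0.369 and 1.23 CPM in CD8 cells, against 6.74, 5.24, 0 and 2.54 CPM (8, 8, 0 and 4 UMIs) in CD4 cells. It fell by 2.53 ± 0.73 on the log2 scale in CD8 cells (SE, edgeR adjusted p = 0.0215). With liproxstatin replicate 1 or 2 left out, or with no library block, it did not pass the filter on low counts. Trav16n was at 4.71, 0.864, 1.66 and 1.46 CPM in CD8 cells, against 14.3, 2.62, 1.66 and 6.35 CPM in CD4 cells, and fell by 1.45 ± 0.42 (SE, edgeR adjusted p = 0.0223), a call lost in 2 of 9 alternatives. Both alpha segments were lower in CD8 cells in 3 libraries and not in control replicate 1. In the same fit 10 of 16 effector and exhaustion genes rose and 1 fell, 6 of 8 naive and memory genes fell and 1 rose, and 4 of 4 regulatory T genes fell. The phagocyte marker list was at 2707 and 2488 CPM in CD4 cells of the liproxstatin libraries, against 664 and 7166 CPM in the control libraries, and its part was not tested. Prf1, the pore-forming protein of killer cells, rose by 5.26 on the log2 scale (edgeR adjusted p = 2.08e-05), and S1pr1, the receptor by which T cells leave tissue, fell by 3.96 (edgeR adjusted p = 2.64e-08).

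The concentration of the repertoire was measured as the share of cell pairs, drawn within a library, that carried the same segment. It was highest for the alpha chain of CD8 cells in liproxstatin replicate 1. Trav concentration in CD8 cells was 33.7% and 10.5% in the liproxstatin libraries, against 13.7% and 8.82% in the control libraries, with means of 22.1% ± 16.4 and 11.3% ± 3.47 (SD, n = 2 each). The difference of 10.8 percentage points was within the spread (exact permutation test over libraries, two-sided, p = 0.667) and turned to -0.750 without liproxstatin replicate 1. Trbv concentration in CD8 cells was 14.5% and 11.9% in the liproxstatin libraries, against 14.9% and 12.4% in the control libraries, a difference of -0.483 percentage points (p = 0.667, exact permutation test). That difference was 0.837 without liproxstatin replicate 2 and 0.745 without control replicate 1. The groups overlapped for both chains.

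Within every library, CD8 cells were more concentrated than CD4 cells for both chains when all UMIs were used. Trav concentration in CD4 cells was 3.09% and 3.61% in the liproxstatin libraries, against 1.90% and 2.71% in the control libraries, so that CD8 exceeded CD4 by a mean of 13.9 percentage points. For Trbv the CD4 values were 13.5% and 9.25% in the liproxstatin libraries, against 5.23% and 10.8% in the control libraries, a mean difference of 3.74 percentage points. Each difference held in 4 of 4 libraries (exact sign-flip permutation test, two-sided, p = 0.13, the smallest that 4 pairs can give). CD4 cells were shallower, and with each cell thinned to 3000 UMIs the Trbv difference was 1.44 percentage points (p = 0.875, exact permutation test), so it no longer held in all libraries. It was 3.14 without cells with a UMI of the macrophage gene Csf1r (p = 0.5, exact permutation test) and 1.76 without control replicate 1. The Trav difference was 11.6 after thinning (p = 0.13, exact permutation test) and 8.28 without liproxstatin replicate 1. CD8 cells with a UMI of Pdcd1, the gene of the PD-1 receptor that T cells show after antigen contact, were likewise more concentrated than CD8 cells without one. Trav concentration was 35.7% in Pdcd1-positive against 8.42% in Pdcd1-negative cells of liproxstatin replicate 1 and 11.1% against 5.53% in liproxstatin replicate 2. It was 18.3% in Pdcd1-positive against 3.68% in Pdcd1-negative cells of control replicate 1 and 9.84% against 3.22% in control replicate 2. The mean difference was 13.5 percentage points for Trav and 5.57 for Trbv, in 4 of 4 libraries each (p = 0.13, exact sign-flip permutation test). Only 13 to 24 Pdcd1-negative cells per library had exactly 1 Trbv segment, and with at least 2 UMIs of the segment the Trbv difference turned to -2.29.

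**Figure D3:**
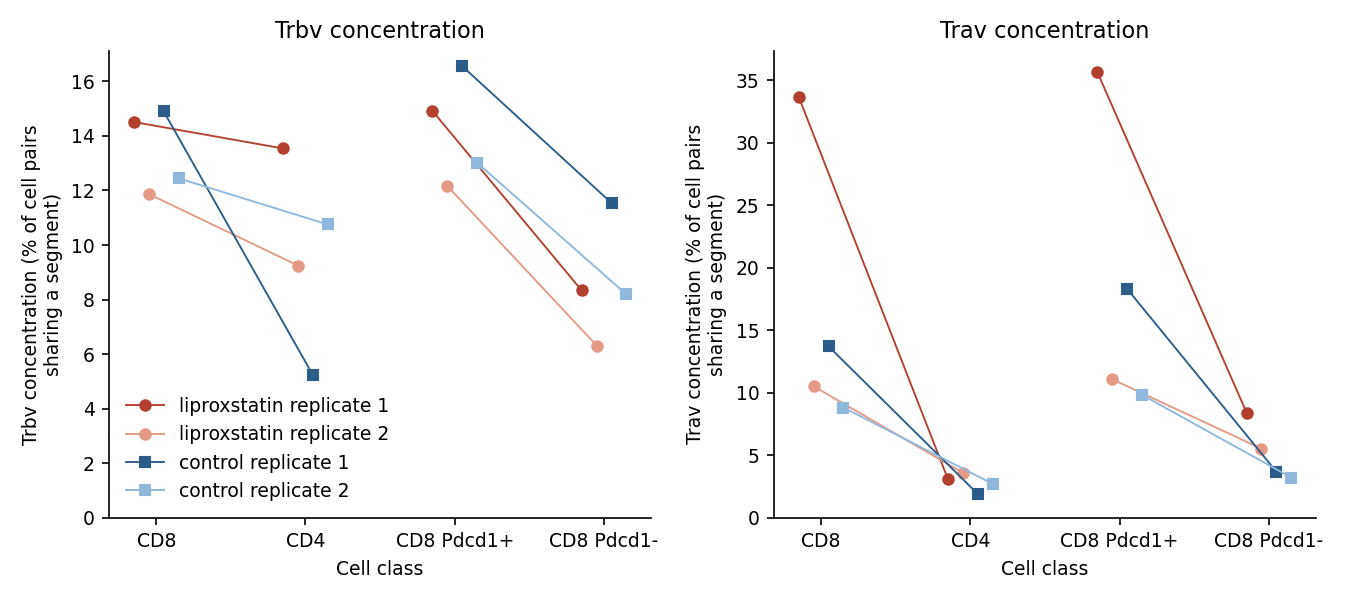
Concentration (% of cell pairs within a library that share a segment) of Trbv on the left and Trav on the right, with 1 point per library and lines joining the values of a library. CD8 cells lie above CD4 cells and Pdcd1-positive above Pdcd1-negative CD8 cells in all 4 libraries, and Trav concentration in CD8 cells of liproxstatin replicate 1 is 33.7%.

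Cells with exactly 1 segment of each chain showed which segments went together. There were 161 and 106 such CD8 cells in the liproxstatin libraries, against 64 and 109 in the control libraries. Trav3-3 with Trbv19 was the most frequent pair in liproxstatin replicate 1 and in control replicate 1, and was in 59 and 10 cells of the liproxstatin libraries, against 17 and 1 of the control libraries. In liproxstatin replicate 1 it made up 36.6% of the paired cells (exact 95% binomial interval 29.2% to 44.6%), where the product of the shares of both segments was 22.9%. In liproxstatin replicate 2 it made up 9.43% beside a product of 4.06%, and in control replicate 1 26.6% beside a product of 10.7%. This pair thus recurred across libraries of both groups, whereas most other frequent pairs were found in 1 library. As 1 of the 59 cells held a joining segment UMI, whether they were 1 clone was not tested.

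The other frequent pairs were largely private to a library. Trav7d-4 with Trbv14 was in 12 cells of liproxstatin replicate 2 (11.3%, beside a product of 2.14%) and in no other library. Trav5-1 with Trbv4 was in 11 cells of liproxstatin replicate 2 and 2 cells of control replicate 2. Trav7-3 with Trbv31 was in 15 cells of control replicate 2 (13.8%, beside a product of 2.88%). Trav3-1 with Trbv1, Trav4-2 with Trbv13-2 and Trav7-4 with Trbv5 were each in 8 cells of control replicate 2, the last also in 1 cell of liproxstatin replicate 1. Trav3-3 with Trbv29 was in 14 and 0 cells of the liproxstatin libraries, against 1 and 1 of the control libraries. Trav16n with Trbv13-2 was in 5 cells of liproxstatin replicate 1 alone. In control replicate 1, Trbv2 was with Trav10, Trav10d and Trav13n-3 in 3 cells each, and Trav14d-3-dv8 with Trbv29 was in 3 cells. In CD4 cells every pair was seen once within its library, in 11 and 10 cells of the liproxstatin libraries, against 6 and 12 of the control libraries.

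Cells with 2 segments of a chain repeated the private pattern. Trav13-1 with Trav3-3 was in 29 CD8 cells of liproxstatin replicate 1 and in no cell of the other libraries, and 5 of the 8 that had 1 Trbv segment had Trbv29. Trav7d-4 with Trav4-2 was in 9 cells of liproxstatin replicate 2 alone, and 3 of the 5 with 1 Trbv segment had Trbv14. Trav14d-3-dv8 with Trav14n-3 was in 18 cells of control replicate 2 alone, and 8 of the 10 with 1 Trbv segment had Trbv13-1; these 2 names belong to 1 subgroup. Trav7-4 with Trav15-1-dv6-1 was in 11 cells of control replicate 2 alone. Segments of at least 2 subgroups were in 18.1% of CD8 cells with a Trav UMI and in 14.4% of those with a Trbv UMI, and the mean difference over libraries was 4.59 percentage points (exact sign-flip permutation test, two-sided, p = 0.25, n = 4 libraries). For the beta chain, Trbv12-2 with Trbv13-2 was the most frequent double, in 6 and 10 cells of the liproxstatin libraries, against 5 and 10 of the control libraries. These genes lie 2545 bases apart, and 95 of 174 CD8 cells with Trbv12-2 (54.6%) had a second Trbv segment, against 28 of 244 with Trbv19 (11.5%). Doubles did not simply follow distance. Trbv20, 58126 bases from its most frequent partner Trbv13-3, had a second segment in 19 of 35 cells. Trbv3, 950 bases from its most frequent partner Trbv2, had a second segment in 5 of 30 cells. Whether such doubles are transcripts that run through neighbouring segments, doublets or second rearrangements was not tested.

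Of the beta segments that superantigens are known to deplete in Balb/c mice (Trbv26, Trbv12-1, Trbv12-2, Trbv16 and Trbv15), all but Trbv26 were seen. Together they made up 7.10% and 22.5% of CD8 cells with 1 Trbv segment in the liproxstatin libraries, against 9.77% and 8.17% in the control libraries. Trbv12-2 gave 18 of 26 and 30 of 69 of these cells in the liproxstatin libraries, against 12 of 13 and 19 of 21 in the control libraries. In liproxstatin replicate 2 Trbv16 and Trbv15 made up the rest. Of all 174 CD8 cells with Trbv12-2, 95 had a second Trbv segment. Whether a Trbv12-2 UMI marks the receptor that a cell uses was not tested. In CD4 cells the listed segments made up 11.5% and 9.68% in the liproxstatin libraries, against 27.8% and 25.8% in the control libraries. These shares rest on 3 of 26 and 3 of 31 cells, against 5 of 18 and 8 of 31. Trbv26 was in 0 of the 3585 gated T cells, which allows a share of cells with a UMI of up to 0.0837%. Trbv16 was the only Trbv segment of 22 CD8 cells in liproxstatin replicate 2 (7.19%) and of no CD8 cell in the other 3 libraries. Trbv15 was the only Trbv segment of 5 and 17 CD8 cells in the liproxstatin libraries, against 1 and 1 in the control libraries. The segments of invariant receptors were rare: Trav11, of natural killer T cells, was in 4 CD8 cells and no CD4 cell, its copy Trav11d in none, and Trav1, of mucosal-associated invariant T cells, in 16 CD8 and 4 CD4 cells.

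Cells with transcripts of the delta chain constant gene Trdc accounted for most of the Trbv16 cells. This group was chosen after its values had been seen, and it is given with no test. CD8 cells with a Trdc UMI were 12 of 925 (1.30%) and 181 of 1070 (16.9%, exact 95% binomial interval 14.7% to 19.3%) in the liproxstatin libraries, against 2 of 295 (0.678%) and 15 of 753 (1.99%) in the control libraries. In liproxstatin replicate 2 a Trav UMI was in 9.39% of the 181 CD8 cells with Trdc, against 43.8% of the 889 without it, at medians of 12605 and 10934 UMIs. A Trbv UMI was in 33.1% of the cells with Trdc, against 33.0% of those without. Of 47 cells with Trdc and exactly 1 Trbv segment, 23 had Trbv13-1 (48.9%) and 16 had Trbv16 (34.0%), and 5 further cells with Trdc had both. So 16 of the 22 single Trbv16 cells had a Trdc UMI. Trdv2-2, a delta variable segment, was in 33.7% of the cells with Trdc, against 2.59% of those without. Trac, the alpha constant gene, was in 100% of the cells with Trdc and in 98.7% of those without, and Cd8b1 in 98.3% and 96.4%. Without the cells with Trdc, Trbv13-1 was at 12% of the cells of liproxstatin replicate 2 with 1 Trbv segment, and Trav concentration in CD8 cells still differed by 14.1 percentage points between Pdcd1-positive and Pdcd1-negative cells.

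**Figure D4:**
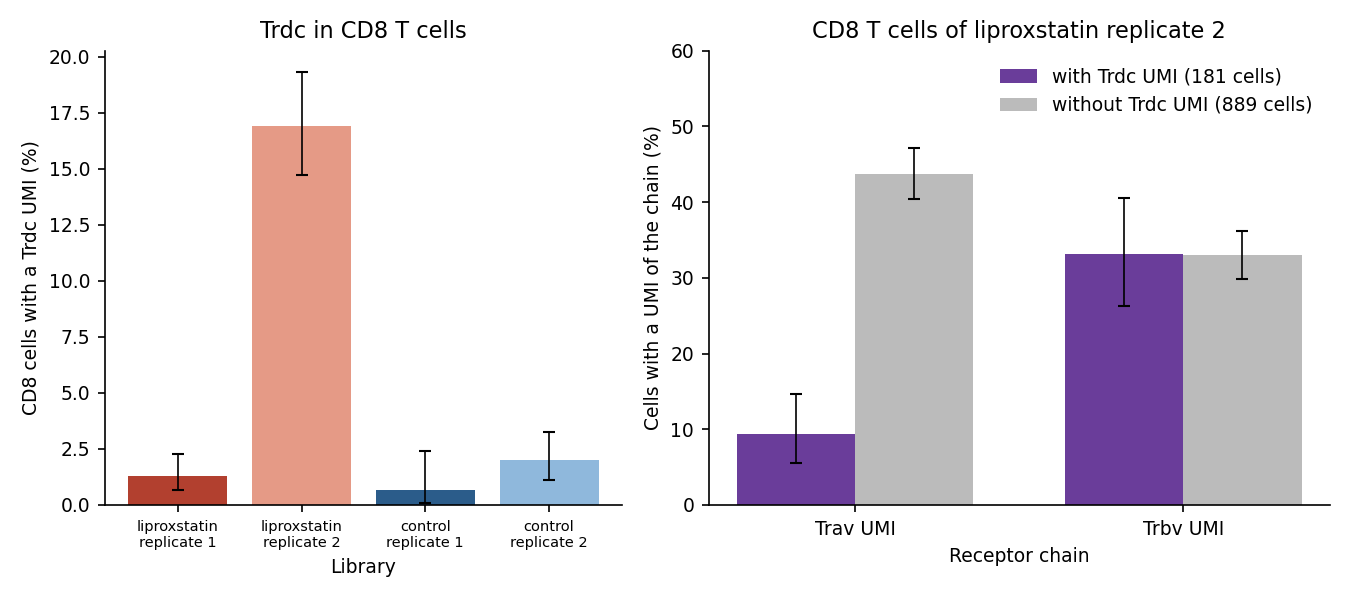
CD8 T cells with a Trdc UMI as a share (%) of all CD8 T cells of each library, on the left, and the share (%) of CD8 cells of liproxstatin replicate 2 with a Trav or a Trbv UMI, with and without a Trdc UMI, on the right; error bars are exact 95% binomial intervals, which cover counting error only. The Trdc share is 16.9% in liproxstatin replicate 2 and at most 1.99% in the other libraries, and the cells with Trdc had a Trav UMI in 9.39% of cells, against 43.8% of cells without.

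The state of cells with a dominant segment was compared with that of cells with another single segment of the same library, with the library as a block. Variable segments, by which the cells were split, are left out of the genes described. Cells with their library's most used alpha segment (Trav3-3, Trav5-1, Trav3-3 and Trav7-4 in liproxstatin replicates 1 and 2 and control replicates 1 and 2) had lower levels of naive and memory T cell genes. Of 8 such genes 6 fell and none rose (edgeR's quasi-likelihood test, adjusted p under 0.05), where 0.719% of all 9463 genes tested were called, 0.222% higher and 0.497% lower, and the median log2 difference of the list was -1.40, beside -0.0024 over all genes. This comparison was added after the usage values had been seen. Without liproxstatin replicate 1, 15 genes other than variable segments were called, against 63 with all libraries. Tcf7, a transcription factor of naive, memory and stem-like T cells, was at 2.69, 11.4, 5.52 and 4.24 CPM in the cells with the leading segment, against 35.0, 26.9, 32.0 and 21 CPM in the others, in the same order of libraries. It was lower in 4 of 4 libraries and fell by 2.50 ± 0.34 (SE, edgeR adjusted p = 0.00573).

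S1pr1 fell by 4.34 ± 0.60 on the log2 scale (SE, edgeR adjusted p = 0.000643) and was at 0.807, 0, 0 and 0 CPM in the cells with the leading segment, against 10.1, 4.70, 8.72 and 9.98 CPM in the others. Lef1, a transcription factor related to Tcf7, fell by 2.45, Slamf6, a receptor of stem-like exhausted cells, by 1.45, Dapl1 by 1.34 and Il7r by 0.54 on the log2 scale. Il7r was not lower in control replicate 1 and was called in 2 of 8 alternatives. Klf2 and Ccr7, the other 2 genes of the list, were not called. Dapl1, S1pr1 and Tcf7 were called in 8, 8 and 7 of 8 alternatives, Slamf6 in 5 of 8 (edgeR adjusted p up to 0.258) and Lef1 in 5 of 7 (adjusted p up to 0.0879). Beyond the list, Emb fell by 2.05 and Itgb7, an integrin chain of gut homing, by 2.18 on the log2 scale, called in 7 and 8 of 8 alternatives. Of 16 effector and exhaustion genes and 7 proliferation genes none was called; the median log2 difference of the effector list was 0.25.

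**Figure D5:**
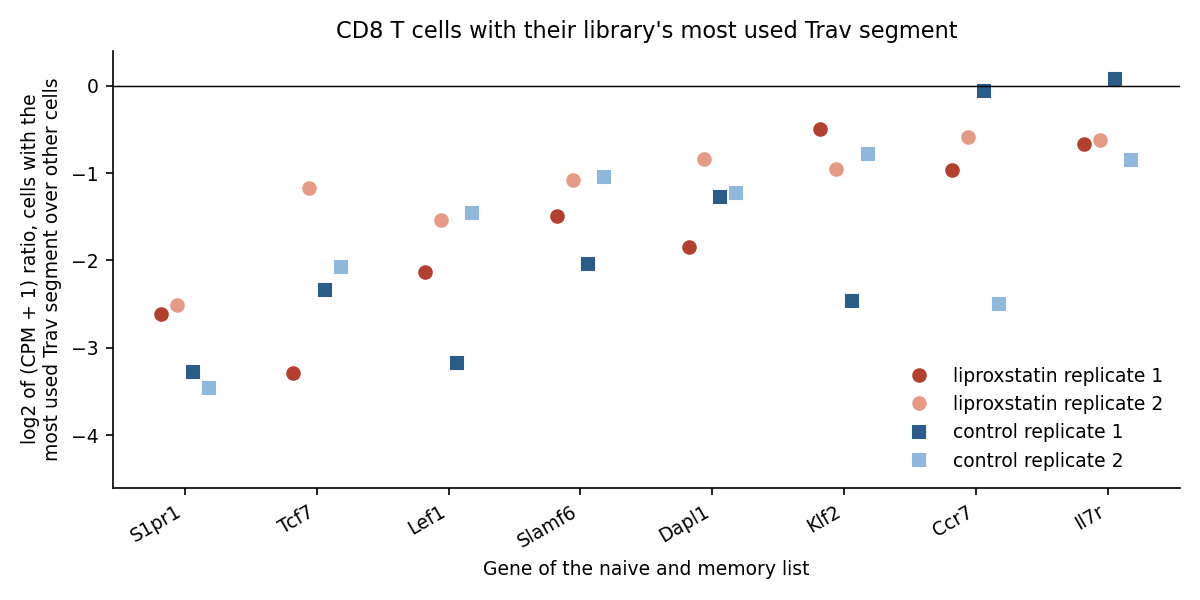
Log2 ratio of (CPM + 1) of the 8 naive and memory genes in CD8 T cells with their library's most used Trav segment over CD8 T cells with another single Trav segment, 1 point per library; the line at 0 marks equal levels. S1pr1, Tcf7, Lef1, Slamf6 and Dapl1 lie below 0 in all 4 libraries, while Il7r lies above 0 in control replicate 1.

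Of the genes that rose with the leading alpha segment, Tcrg-C2, a gamma chain constant gene, was at 107, 127, 136 and 167 CPM in the cells with the leading segment, against 63.3, 72.3, 89.5 and 124 CPM in the others. It rose by 0.68 ± 0.09 on the log2 scale (SE, edgeR adjusted p = 0.000312), and the gamma variable segment Trgv2 rose by 0.74 ± 0.11 (SE, edgeR adjusted p = 0.00113), so that 2 of 4 tested gamma-delta genes rose. Pglyrp1, a peptidoglycan recognition protein, rose by 0.44, Glipr1 by 0.61 and Ltf, the granule protein lactoferrin, by 2.37 on the log2 scale. Tcrg-C2, Trgv2 and Pglyrp1 were each called in 7 of 8 alternatives, and Glipr1 and Ltf each in 5 of 8. The summed list of phagocyte markers was at 415, 302, 699 and 421 CPM in the cells with the leading segment, against 719, 1788, 334 and 544 CPM in the others, so it did not move 1 way in all libraries.

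With the beta chain the pattern was narrower. In cells with their library's own most used Trbv segment (Trbv19, Trbv19, Trbv2 and Trbv1), 2 of 8 naive and memory genes fell, where 0.118% of 9326 genes were called, 0.0322% higher and 0.0858% lower (8 genes other than variable segments, and 14 without control replicate 2). Tcf7 was at 10.6, 6.45, 9.56 and 5.37 CPM, against 23.7, 26.8, 15.3 and 21 CPM in the others, and fell by 1.45 ± 0.26 on the log2 scale (SE, edgeR adjusted p = 0.00547). Klf2 fell by 0.73, Csf2, the myeloid growth factor GM-CSF, by 2.04, and Ly6c1, an antigen of memory CD8 cells, by 1.25 on the log2 scale, while Gadd45g rose by 1.09 and Ifitm2 by 0.50. Tcf7 lost its call in 3 of 8 alternatives, with DESeq2, with no library block and without liproxstatin replicate 2 (edgeR adjusted p up to 0.480). Klf2 lost it in 3 as well, without either liproxstatin replicate and with no library block (edgeR adjusted p up to 1.0). Ifitm2 lost its call in 4 of 8 alternatives, Csf2 and Gadd45g each in 2 and Ly6c1 in 1. Cells with Trbv19 itself (111, 67, 30 and 8 cells, against 255, 239, 103 and 249 with another segment) were compared as well, and 0.181% of 9379 genes were called, 0.0853% higher and 0.096% lower, none of them on a list of T cell genes. The 10 called genes other than variable segments became 1 without liproxstatin replicate 1, 18 without liproxstatin replicate 2 and 19 without control replicate 2. Cd5, a receptor that dampens antigen receptor signals and follows their strength, was at 93.7, 100.4, 118 and 71.7 CPM in Trbv19 cells, against 40.3, 52.4, 52.5 and 44.5 CPM in the others, and rose by 1.05 ± 0.14 on the log2 scale (SE, edgeR adjusted p = 4.56e-05). Cd6, a relative of Cd5, rose by 0.73, Cd226, a costimulatory receptor of killer cells, by 0.61 and Igfbp7 by 0.91 on the log2 scale, each higher in 4 of 4 libraries. Cd5 was called in 9 of 11 alternatives, Igfbp7 in 8, Cd6 in 5 and Cd226 in 4. Hspb1 and Hspa1a, heat shock genes, fell by 3.11 and 0.75, and the macrophage genes Mrc1 and Wfdc17 by 1.42 each, beside a phagocyte marker list at 359, 303, 885 and 414 CPM in Trbv19 cells, against 503, 343, 1271 and 509 CPM in the others. Mrc1 was called in 5 of 11 alternatives, Wfdc17 in 4, Hspa1a in 3, and Hspb1 in 4 of 7. The part of phagocyte RNA in these values was not tested.

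Seen over all libraries, the alpha usage profiles of CD8 cells did not sort by treatment. The beta profiles were most alike between the 2 liproxstatin libraries. Yet liproxstatin replicate 1 was nearer to control replicate 1 than the 2 control libraries were to each other. Sorting by treatment was not tested. The Morisita-Horn index, which is 1 for equal usage profiles and 0 for profiles with no shared segment, was 0.788 for Trbv of CD8 cells between the 2 liproxstatin libraries, 0.660 between the 2 control libraries, and 0.440 to 0.764 between libraries of different groups. For Trav it was 0.498 between the liproxstatin libraries, 0.320 between the control libraries, and 0.210 to 0.832 between groups. The highest Trav likeness was between liproxstatin replicate 1 and control replicate 1, the libraries where Trav3-3 was most used.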

How the data were processed

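The authors deposited counts, 1 matrix of UMIs per gene and barcode for each of 4 libraries, not normalized, per the file headers. Cell Ranger 6.1.1 stands in the headers, but per the submitters' processing notes the version was Cell Ranger 4, with mm10. Libraries were grouped by the treatment label. The segments and gene lists were chosen with earlier results of these data known.

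Cells with at least 200 genes and under 15% mitochondrial UMIs were kept, and Scrublet (scanpy 1.11.5) left out the highest-scoring cells at 0.8% per 1000 barcodes, which left 25730 cells. Library totals ran from 83129874 to 168597163 UMIs. UMIs were summed per library and gate and tested with edgeR 4.0.16 (quasi-likelihood, filter on low counts, TMM, Benjamini-Hochberg, threshold 0.05), after checks on simulated data. Concentrations and shares were tested by exact permutation over libraries. Intervals are exact binomial (Clopper-Pearson, 95%) and cover counting error only. Thinned shares left out 33 CD8 and 32 CD4 cells under 3000 UMIs.

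Named are the 10 Trbv and 6 Trav segments with the highest mean usage in each class, the most used of each library, segments past the threshold, the superantigen and invariant-receptor segments, the 3 most frequent pairs of a library, and up to 10 genes each way by p for the leading segment; the pairs of CD4 cells, each seen once, are given as counts. Alternatives were RLE scaling, DESeq2 1.42.0, no filter, each library left out, doublets kept, cells with a Csf1r UMI left out, 2 UMIs per segment, thinning, merged subgroups, the replicate block and scaling to segment UMIs. The comparisons by a library's own most used segment and those without Trdc cells were added after the data had been seen. The labels do not say that replicate numbers pair libraries, so the main fits have no replicate block. Deviations of same-numbered libraries from their group means correlated at 0.00218 in CD8 and 0.153 in CD4 cells. With 2 libraries per group these values cannot settle whether same-numbered libraries shared a batch. The naive and memory list was longer by 1 gene, which is not reported here; its counts cover the remaining 8.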

Additional observations from a re-analysis of the deposited data

How the results depend on the processing

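Over the main comparisons, 149 alternatives kept the direction and, for counts, stayed within 1.5 times, 27 moved a count further and 10 turned a difference round. For CD8 cells, liproxstatin over control, 1 segment was called, against 3 with DESeq2, 13 with no filter on low counts, 5 without cells with a Csf1r UMI, 7 with scaling to segment UMIs, 5 with the replicate block and 1 to 14 with each library left out. Calls over all genes moved with these, from 11 to 37, 254, 106, 29 and 47 in the same order, and 9 to 280 with each library left out. For CD4 cells 0 segments were called, against 1 with no filter and 0 to 1 with each library left out, where 0 genes of all became 46 with no filter, 18 with scaling to segment UMIs, 7 with doublets kept and 0 to 223 with each library left out. For CD8 over CD4, 3 were called, against 0 with no library block and 1 to 5 with each library left out. In Trbv19 cells 10 genes other than segments were called, against 3 with DESeq2, 43 with no filter, 5 with doublets kept, 3 without cells with a Csf1r UMI, 1 with no library block, 1 with 2 UMIs of the segment and 1 to 19 with each library left out. For a library's own most used Trbv segment 8 were called, against 37 with no filter, 0 with no library block and 6 to 14 with each library left out. For its own most used Trav segment 63 were called, against 18 with DESeq2, 189 with no filter, 7 with no library block and 15 to 83 with each library left out. Trbv concentration, liproxstatin minus control in CD8 cells, was -0.483 percentage points, against 0.527 with subgroups merged and -1.80 to 0.837 with each library left out. The same difference in Trav concentration ran from -0.750 to 22.4 with each library left out. CD8 minus CD4, Trbv concentration ran from 1.76 to 4.66 and Trav from 8.28 to 16.4 with each library left out. The Pdcd1 difference in Trbv concentration was -2.29 with at least 2 UMIs. The thinned share of cells with a Trbv UMI, liproxstatin minus control, was -0.452 in CD8 cells (-2.62 to 1.71 with each library left out) and 0.871 in CD4 cells (-5.36 without thinning, -0.559 without cells with a Csf1r UMI, -1.35 to 3.10 with each library left out). In Trbv19 cells Mrc1 turned to 0.16 without cells with a Csf1r UMI and 0.29 with 2 UMIs, and Wfdc17 to 0.53 with 2 UMIs. The cause of these changes was not tested. Correlations of same-numbered libraries could not settle whether the replicate block is a pairing. At 2 UMIs of the segment Trbv concentration in CD4 cells had no value. Shares in CD4 cells rest on 18 to 52 cells per library.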
